A study of Mus musculus with 5 samples.

Results

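The Myc locus was examined over 2 Mb of mouse chromosome 15, chr15:61700000-63700000 in build mm9, a window defined by position. It was chosen with earlier results of these data known. Every peak or region that touched this window was a member: 11 of 6578 Hoxa9 peaks, 32 of 26446 C/EBPα peaks, 105 of 100189 H3K4me1 regions and 4 of 33769 H3K27me3 regions, or 152 of 166982 in all. Myc lies on the plus strand with its start near 61817000, known here only to about 1 kb. An interval from 63400000 to 63600000, named as the far blood enhancer region and called the far interval below, begins 1583 kb and ends 1783 kb downstream of that start. The chromatin came from lineage-depleted bone marrow of C57B6 mice, labelled hematopoietic progenitor cells. They had been transduced with the retroviral constructs MIGR1-HA-Hoxa9 and MIGR1-Flag-Meis1 and were grown in IL3. Hoxa9 was precipitated through the HA tag, so only the introduced protein was mapped, and C/EBPα, H3K4me1 and H3K27me3 were precipitated with antibodies against themselves. All 5 libraries of the study (these 4 and an input, not analysed here) share strain, constructs and culture, with 1 library per group. Replicate error is unknown for every value because each group has 1 library. No untransformed cells are among the groups. The lists hold no expression levels, so the labelled cell type was not checked against marker genes and nothing is known here of Myc transcription.

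Myc encodes a basic helix-loop-helix transcription factor that drives growth and division of blood progenitors and is a common oncogene in leukaemia. The gene is followed by Pvt1, a long non-coding RNA gene, and then by a long stretch without protein-coding genes that is known to hold enhancers acting on Myc over great distances, among them a cluster used in blood stem cells, progenitors and myeloid leukaemia. H3K4me1 is a histone mark of active and poised enhancers, and H3K27me3 is laid down by Polycomb repressive complexes. Hoxa9 is a homeodomain factor of stem and progenitor cells that transforms bone marrow together with its cofactor Meis1, while C/EBPα, a basic leucine zipper protein, belongs to the myeloid lineage. In the RefSeq annotation of GRCm38.p6, another build from which only names and order were taken, 16 genes lie between Myc and the next protein-coding gene in the direction of Pvt1. These are 9 long non-coding RNA genes, 5 pseudogenes and 2 small RNA genes. The next protein-coding gene is Gsdmc, a member of the gasdermin family of pore-forming proteins, followed by Gsdmc2, Gsdmc3, Gsdmc4 and Cyrib. None of these genes was placed on mm9, so peaks are given by their distance from the Myc start.

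The strongest binding near the gene was by C/EBPα alone. A C/EBPα peak at chr15:61814532-61815640 had its summit 1.84 kb upstream of the Myc start, with 250 tags in the peak and a fold enrichment of 62.71. Fold enrichment is a linear ratio over background given by the caller and was not computed here from the tags. The value of 62.71 was the highest of any member, rank 62 of 26446 in the C/EBPα list and rank 4 of 1142 on chromosome 15. Its score of 3100 (10 times −log10 of the p-value given by the caller) was shared by 231 C/EBPα peaks. They were tied from rank 31 of 26446 onward, below peaks of higher score, so the rank of this peak by score is not defined more closely. The peak touched no H3K4me1, H3K27me3 or Hoxa9 member. The nearest H3K4me1 region, chr15:61820669-61821649, had its summit 4.34 kb downstream of the start, within the approximate span of Myc, with 39 tags and a fold enrichment of 5.94. The nearest Hoxa9 summit was 193 kb away, and the nearest H3K27me3 summit 1835 kb.

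Further C/EBPα peaks lay along the first 100 kb. Within 100 kb of the start lay 8 C/EBPα summits, 15 H3K4me1 summits, 0 Hoxa9 and 0 H3K27me3 summits, all but the upstream C/EBPα peak being downstream. The other 7 C/EBPα peaks had fold enrichments from 4.17 to 8.47 and 16 to 42 tags, where the list's median was 35 and the fewest in any peak 15. The nearest of them had summits 6.81 and 9.35 kb downstream of the start. Of the 8, 3 touched an H3K4me1 region, where 73.6% of the whole C/EBPα list did. The 5 that touched none included the strong upstream peak. Upstream of that peak the window held no peak of any list. The nearest C/EBPα and H3K4me1 calls beyond that border were 414 and 415 kb outside the window, with fold enrichments of 7.04 and 2.63.

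**Figure D1:**
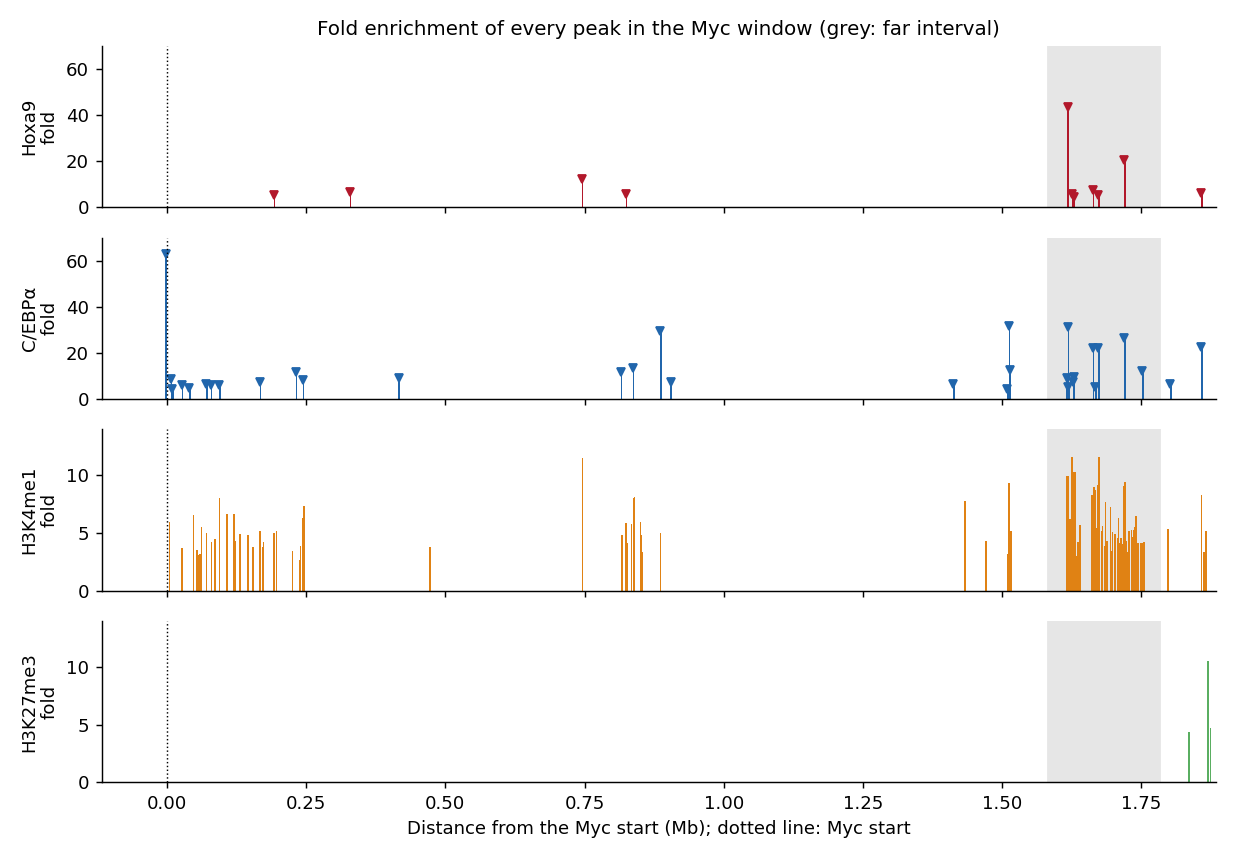
Fold enrichment (linear ratio, y axis) of every peak or region in the Myc window against distance from the Myc start in Mb, 1 panel per list; bars span each peak (drawn at least 2.9 kb wide so that it can be seen), triangles mark factor summits, and the grey band is the far interval. The highest C/EBPα bar, 62.71, stands at the Myc start, and the highest Hoxa9 bar, 43.62, stands in the far interval.

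H3K4me1 downstream of Myc came in many small regions. From the start to 300 kb downstream, a stretch that begins with Myc and runs on in the direction of Pvt1, 32 regions covered 24.4 kb, or 8.13%, against 5.61% of the window and 4.53% of the span of the lists. Their median fold enrichment was 4.29, below the 4.84 of the whole list. The mark broke off at about 246 kb, and its next region began at 471 kb, with 17 tags and a fold enrichment of 3.81. The first 83 kb of that break held nothing called in any list. Regions of H3K4me1 separated by gaps of at most 10 kb were joined into stretches. The window held 21 stretches, of which 9 had 3 or more regions, and those 9 contained 88 of the 105 regions. In the whole H3K4me1 list, 44.3% of 24120 stretches had 3 or more regions. The broadest near Myc ran from 46.8 to 95.1 kb downstream and held 12 regions over 48.4 kb. Its regions covered only 17.2% of it, with a highest fold enrichment of 8.07, and it held 3 C/EBPα summits and 0 Hoxa9 summits. The stretches of 3 regions at 119 to 131 kb and at 165 to 174 kb held 0 and 1 C/EBPα summits. A stretch of 4 regions at 238 to 246 kb held 1.

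The first Hoxa9 peaks lay farther out and were weak or moderate. The Hoxa9 peak at 193 kb (chr15:62009185-62009808) had 33 tags and a fold enrichment of 5.46. It touched the edge of an H3K4me1 region, with its nearest C/EBPα summit 25.6 kb away. The next, at 329 kb (chr15:62145670-62146693), had 58 tags and a fold enrichment of 6.43, and was the only Hoxa9 member that touched no H3K4me1. A single H3K4me1 region at 745 kb with a fold enrichment of 11.53 held a Hoxa9 peak (chr15:62561948-62562647) with a fold enrichment of 12.01 and 55 tags. No C/EBPα summit lay within 70 kb of it. This site stood by itself, with 273 kb on its Myc side free of any call.

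The middle of the gene-poor stretch held a second marked group, 815 to 905 kb from Myc. A stretch of 12 H3K4me1 regions ran from 816 to 852 kb, with 23.2% of its 36.4 kb covered and a highest fold enrichment of 8.10. A weak Hoxa9 peak at 824 kb (chr15:62640746-62641535, fold enrichment 5.58, 41 tags) lay 8.68 kb from the nearest C/EBPα summit. The C/EBPα peaks at 815, 837 and 886 kb had fold enrichments of 11.49, 13.17 and 29.63, and a weaker one at 905 kb had 7.47. The strongest, chr15:62702563-62703587, held 145 tags inside an H3K4me1 region of 1978 bp and stood 62.0 kb from the nearest Hoxa9 summit. The only Hoxa9 peak of this group touched no C/EBPα peak. In the whole Hoxa9 list 56.9% of peaks touched one. Beyond this group, 507 kb from 905 to 1412 kb held no call in any of the 4 lists, the longest empty run of the window.

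A strong C/EBPα site without Hoxa9 preceded the far interval. At 1512 kb, chr15:63328477-63329457 had 142 tags and a fold enrichment of 31.81, the second highest C/EBPα fold enrichment in the window. A neighbour at 1513 kb had 12.49 and 70 tags, and a weak one at 1509 kb had 4.17. All 3 summits lay in a stretch of 3 H3K4me1 regions from 1509 to 1516 kb, and the main pair shared a region of 3856 bp with a fold enrichment of 9.38. The nearest Hoxa9 summit was 106 kb away, inside the far interval, and the 99.5 kb between this site and that interval's first region held no call.

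By tags, the far interval held most of the Hoxa9 and most of the H3K4me1 signal of the window. It makes up 10% of the window and held 6 of the 11 Hoxa9 summits with 70.1% of the tags in Hoxa9 members, 10 of the 32 C/EBPα summits with 43.5% of the tags, and 48 of the 105 H3K4me1 summits with 63.1% of the tags. Of the 516 Hoxa9 tags in the interval, 261 were in the peak at 1618 kb and 135 in that at 1720 kb. H3K4me1 covered 64.2 kb of the interval, or 32.1%, against 2.67% of the rest of the window. Hoxa9 summits came to 3 per 100 kb in the interval and 0.278 in the rest, and C/EBPα summits to 5 and 1.22. H3K27me3 had 0 regions in it, as had 55.9% of the windows of this length over the genome. Among 13178 consecutive windows of 200 kb over the genome, 0.501% held 6 or more Hoxa9 peaks, 3.06% held 10 or more C/EBPα peaks, and 0.713% held 48 or more H3K4me1 regions. H3K4me1 covered 64.2 kb or more in 1.52% of them. These windows start at the first base of each chromosome and include unsequenced stretches. The interval was named by position with earlier results of these data known, so these ranks are a description.

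**Figure D2:**
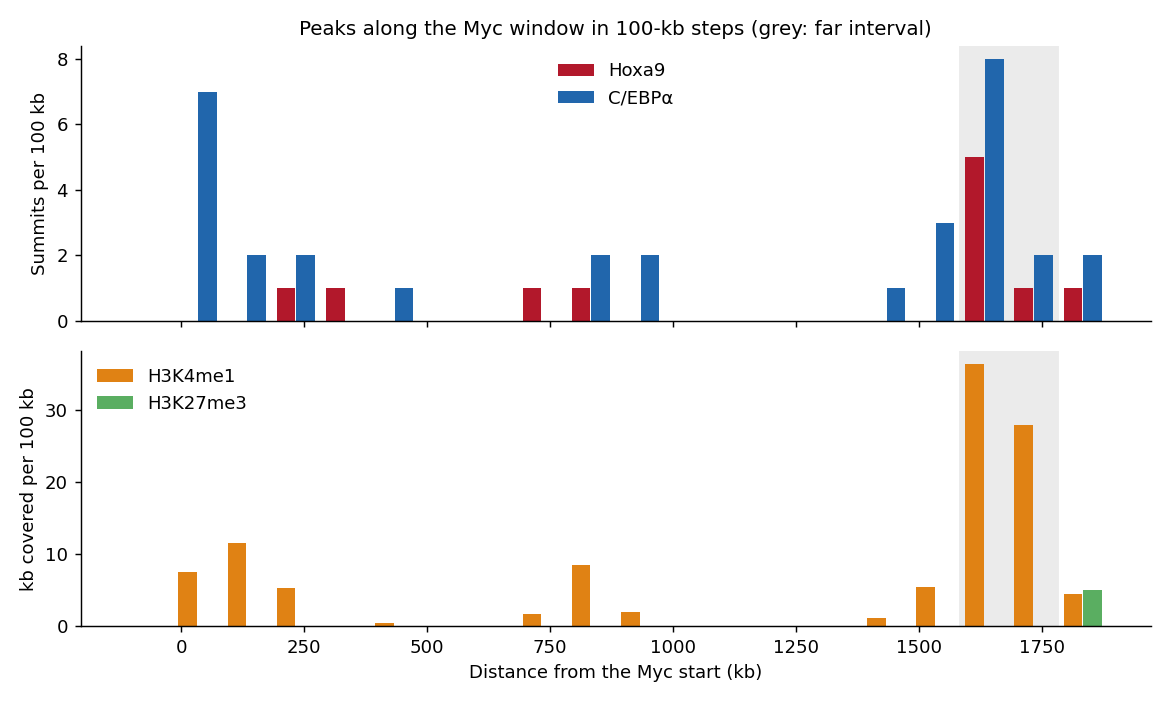
Number of factor summits (upper panel) and kb covered by each histone mark (lower panel) in consecutive steps of 100 kb along the window, against distance from the Myc start in kb; grey marks the far interval. The step from 1583 to 1683 kb has the highest values for Hoxa9 (5 summits), C/EBPα (8 summits) and H3K4me1 (36.3 kb), while H3K27me3 appears only in the last step.

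Within the far interval the calls began at 1615 kb and ended at 1755 kb, and fell into a pair of marked stretches separated by 19.4 kb. The first ran from 1615 to 1640 kb (chr15:63432114-63457108), with 7 H3K4me1 regions that covered 69.1% of its 24.995 kb. It held 3 Hoxa9 and 5 C/EBPα summits. The second ran from 1660 to 1755 kb (chr15:63476506-63571972), with 41 H3K4me1 regions that covered 46.9 kb of its 95.5 kb, or 49.2%. It held 3 Hoxa9 and 5 C/EBPα summits as well. In covered length it ranked 221 of 24120 stretches, so that 0.916% of all stretches covered as much or more. Its 40 gaps between regions had a median of 584 bp and a longest of 5437 bp. Its regions had fold enrichments from 3.10 to 11.58 with a median of 4.93, close to the median of the whole list, 4.84. The broadest stretch near Myc had 17.2% of its length covered, against 49.2% here. The highest regions were at its Myc side and around 1720 kb.

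The first stretch opened with the strongest Hoxa9 peak of the window. At 1618 kb, chr15:63434168-63435610 had 261 Hoxa9 tags and a fold enrichment of 43.62, rank 8 of 6578 in the Hoxa9 list and rank 1 of 286 on chromosome 15. C/EBPα at the same place (chr15:63434362-63435631) had 224 tags and a fold enrichment of 31.29, with the summits 61 bp apart. Both summits lay inside an H3K4me1 region of 4450 bp with a fold enrichment of 9.94 and 289 tags. C/EBPα peaks on either side, at 1616 and 1619 kb, had fold enrichments of 9.14 and 5.23 and lay in the same region. Hoxa9 at 1626 kb (chr15:63442508-63442948) had a fold enrichment of 5.58 and 19 tags without C/EBPα. A weak Hoxa9 peak at 1629 kb (chr15:63445689-63446136, fold enrichment 4.29, 17 tags, the fewest that the Hoxa9 list holds) met a C/EBPα peak with 9.69 and 74 tags, its summit 299 bp away. A C/EBPα peak at 1628 kb had a fold enrichment of 7.41 and no Hoxa9. The Hoxa9 summit at 1626 kb lay inside an H3K4me1 region of 2152 bp with a fold enrichment of 11.56. Its peak also reached the edge of the next region, which held the sites at 1628 and 1629 kb. That next region was the widest of the window and spanned 6795 bp, with a fold enrichment of 10.32 and 463 tags.

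The second stretch held 3 sites shared by both factors. At 1663 kb Hoxa9 (chr15:63479548-63480684) had 59 tags and a fold enrichment of 7.54, and C/EBPα (chr15:63479522-63480441) had 125 tags and 21.87, with summits 5 bp apart. At 1673 kb Hoxa9 (chr15:63489414-63490011) had 25 tags and a fold enrichment of 5.46, and C/EBPα (chr15:63489068-63490215) had 138 tags and 22.09, with summits 72 bp apart. The third, at 1720 kb, was strong for both: Hoxa9 (chr15:63535767-63537043) had 135 tags and a fold enrichment of 20.31, rank 146 of 6578. C/EBPα (chr15:63535795-63537092) had 210 tags there and 26.55, with summits 34 bp apart. C/EBPα alone was found at 1667 kb, with a fold enrichment of 5.01, and at 1751 kb (chr15:63567905-63568635), with 12.18 and 51 tags.

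**Figure D3:**
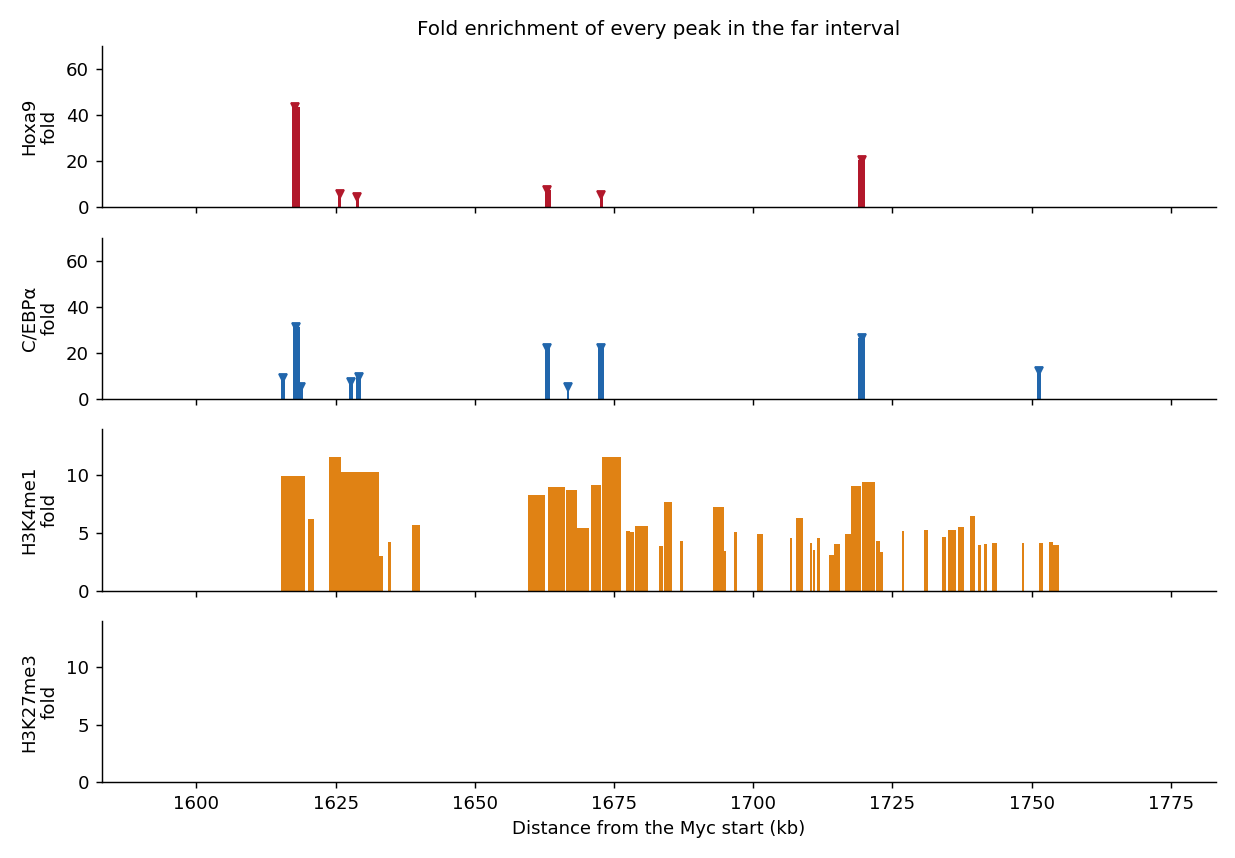
Fold enrichment (linear ratio, y axis) of every peak or region in the far interval against distance from the Myc start in kb, 1 panel per list, with bars to scale and triangles at factor summits. Hoxa9 and C/EBPα stand together at 1618, 1629, 1663, 1673 and 1720 kb, H3K4me1 regions are spread between 1615 and 1755 kb, and the H3K27me3 panel is empty.

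At these last 3 sites the factor summits lay in short breaks of H3K4me1. The breaks were 696, 195 and 163 bp long, and the regions to either side had fold enrichments of 8.27 and 8.97, 9.18 and 11.58, and 9.08 and 9.47. These 6 regions were among the 13 members in the upper 10% of the whole H3K4me1 list by fold enrichment. Over the window 3 of 11 Hoxa9 summits lay in a gap of at most 1 kb between neighbouring regions (whole list 9.32%). For C/EBPα, 3 of 32 summits did (whole list 5.12%). The exact Clopper-Pearson 95% intervals of these shares, 6.02 to 60.97% and 1.98 to 25.02%, include the whole-list values. Both counts come from the same 3 sites and are not separate observations. A further 5 Hoxa9 summits (45.5%, exact Clopper-Pearson 95% interval 16.7 to 76.6) and 16 C/EBPα summits (50%, 31.9 to 68.1) lay inside a region, against 68.6% and 62.8% of the whole lists. The intervals cover counting error only. The strongest site, at 1618 kb, lay inside a region and not in a break. This feature was chosen after its values were seen.

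Over the whole window 6 of the 11 Hoxa9 peaks touched a C/EBPα peak, 54.5% (interval 23.4 to 83.3), close to the 56.9% of the whole Hoxa9 list. Of the 32 C/EBPα peaks, 6 touched Hoxa9, 18.8% (7.21 to 36.4), and 14.2% did so in the whole C/EBPα list. Of the 6 shared sites, 5 lay in the far interval, which held 6 of the 11 Hoxa9 peaks. The sixth lay beyond it, at 1857 kb (chr15:63674057-63674686). There Hoxa9 had a fold enrichment of 6.30 with 33 tags and C/EBPα had 22.50 with 87 tags. No shared site lay in the first 1615 kb downstream of Myc. That part held few Hoxa9 peaks that could be shared, 1 in the first 300 kb and 3 from there to 1 Mb. Summits at shared sites were 5 to 299 bp apart with a median of 66.5 bp, and the median over all 3742 shared Hoxa9 peaks was 73 bp. Shared C/EBPα peaks of the window had fold enrichments from 9.69 to 31.29 with a median of 22.3, and the other 26 from 4.17 to 62.71 with a median of 7.44. In the whole list these medians were 11.55 and 7.41. Shared Hoxa9 peaks ran from 4.29 to 43.62 with a median of 6.92, the others from 5.46 to 12.01 with a median of 5.58. Medians in the whole Hoxa9 list were close to these, 6.835 and 5.58.

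H3K4me1 was touched by 10 of 11 Hoxa9 members, 90.9% (58.7 to 99.8), against 82.4% of the whole list, and by 22 of 32 C/EBPα members, 68.8% (49.99 to 83.9), against 73.6%. In the far interval all 6 Hoxa9 and all 10 C/EBPα peaks touched it, while 10 C/EBPα peaks elsewhere in the window did not. These 10 had fold enrichments from 4.17 to 62.71 with a median of 6.98. Leaving aside the peak beside the Myc start, the highest of them was 11.52, at 232 kb. The 5 Hoxa9 and 22 C/EBPα members outside the far interval had median fold enrichments of 6.30 and 7.80, and those inside it 6.56 and 10.9.

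As a whole the window was not extreme in number of calls. Of 1308 consecutive windows of 2 Mb, 12.4% held at least 11 Hoxa9 peaks, 24.8% at least 32 C/EBPα peaks and 30.2% at least 105 H3K4me1 regions. H3K4me1 covered 112 kb of the window, or 5.61%, and 32.6% of the windows were covered as much. Median fold enrichments were 6.30 for Hoxa9 (6.06 in the whole list), 8.70 for C/EBPα (7.74) and 4.93 for H3K4me1 (4.84). A fold enrichment of 10 or more was reached by 3 of 11 Hoxa9 members against 16.7% of that list, by 13 of 32 C/EBPα members against 35.7%, and by 4 of 105 H3K4me1 regions against 3.34%. The 4 regions had fold enrichments of 10.32, 11.53, 11.56 and 11.58, of which the 11.53 lay at 745 kb and the others in the far interval. By width, 8 of the 10 widest H3K4me1 regions lay in the far interval and spanned 2152 to 6795 bp. The other 2 were the region of 3856 bp at the C/EBPα site at 1512 kb and a region of 2094 bp at 93 to 95 kb, where a C/EBPα peak had a fold enrichment of 5.93.

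**Figure D4:**
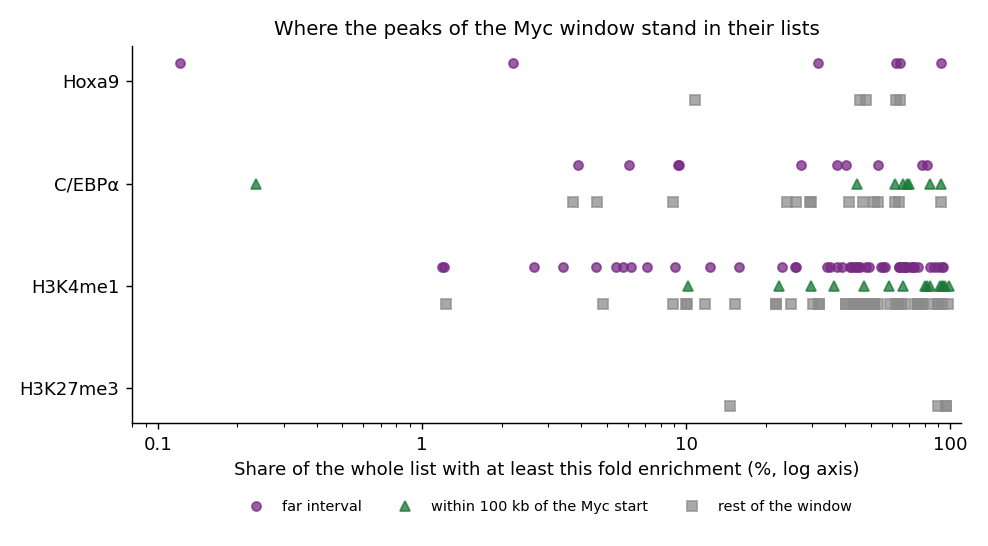
Each member is placed by the share of its own whole list that had at least its fold enrichment (x axis, percent, log scale), 1 row per list; circles are members in the far interval, triangles those within 100 kb of the Myc start and squares the rest of the window. The leftmost points are the Hoxa9 peak at 1618 kb (0.122%) and the C/EBPα peak beside the Myc start (0.234%), and most other members lie within the bulk of their lists.

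H3K27me3 was found only in the last 50 kb of the window, in 4 regions covering 5.05 kb, or 0.253%. The mark covered 2.45% of the span of the lists, unevenly: of 1308 consecutive windows of 2 Mb, 70.9% held 4 or more regions and 77.3% were covered as much. The small ones were chr15:63651412-63651920 at 1835 kb, chr15:63689242-63689766 at 1873 kb and chr15:63689852-63690360, also at 1873 kb. Each of these 3 had 27 tags and a fold enrichment of 4.40 or 4.74, below the list's median of 5.76. The fourth, chr15:63684978-63688487 at 1869 kb, spanned 3510 bp with 289 tags and a fold enrichment of 10.50. None touched a factor peak, and none of the 11 Hoxa9 and 32 C/EBPα members met the mark, which 1.49% and 2.09% of the whole lists did. None of the 4 touched H3K4me1, against 14.6% of all H3K27me3 regions. The sixth shared factor site, at 1857 kb, lay between the first of these regions and the other 3, inside an H3K4me1 region of 1990 bp with a fold enrichment of 8.33, the widest of a stretch of 3 regions from 1856 to 1865 kb. Between the Myc start and the first of these regions, at 1835 kb, no H3K27me3 was called. A site too weak to be called at this library's depth, which is not given in the sources used here, would not be listed.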

How the data were processed

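ChIP-seq peak lists of Hoxa9, C/EBPα, H3K4me1 and H3K27me3 were used, 1 library each. The submitters' processing notes name CASAVA 1.8.2, BWA 0.6.2, MACS 1.4 and build mm9. Settings, the control library and library totals were not given in the sources used here. For each peak the authors deposited, per the file headers, its position, its whole-number tag count (not normalized), a score of 10 times −log10 of the p-value, a fold enrichment (a linear ratio) and a false discovery rate in percent. Tags in members summed to 736, 2143, 5792 and 370 in that order of lists, which are not depths.

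Members, overlaps (at least 1 bp), summit distances, covered lengths and stretches (gaps of at most 10 kb) were computed with Python 3.11.15, pandas 2.3.3 and scipy 1.17.1. The window, the Myc start and the far interval came from a description of the locus. The code was checked against direct counting on simulated lists. With 1 library per group no test between groups was made. Shares of the whole list, and consecutive windows of equal length over 20 chromosomes, are given as background. Intervals are exact Clopper-Pearson at 95%.

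Peaks named are all Hoxa9 members, C/EBPα members in the far interval or among the 10 highest scores, the peak of each list nearest to the Myc start, the 10 widest H3K4me1 regions, stretches of 3 or more regions, and all H3K27me3 regions. Others are named for context and were chosen after their values were seen. Members and rules were chosen with earlier results of these data known. The alternatives tried were stricter thresholds, other overlap rules, other gaps, other bounds of the far interval and a moved Myc start. No mm9 sequence was at hand, and the RefSeq sequence tables hold no entry for Myc or Pvt1, so no sequence is shown.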

Additional observations from a re-analysis of the deposited data

How the results depend on the processing

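Of 70 alternatives to 23 results, 40 stayed within 1.5 times the value (for shares of windows, within its interval) and 30 moved beyond it. None of these results rests on a test. Keeping only fold enrichments of 10 or more moved all 13 results it was applied to. It left 3 Hoxa9, 13 C/EBPα, 4 H3K4me1 and 1 H3K27me3 members, 2 shared Hoxa9 peaks, 1 Hoxa9 and 1 C/EBPα member touching H3K4me1, and 0 stretches. In the far interval it left 2 Hoxa9, 5 C/EBPα and 3 H3K4me1 summits and 12.4 kb of H3K4me1, with 8.95 kb in the largest stretch. Keeping the upper 50% of each list by score moved 10 of 13. It left 7 Hoxa9, 18 C/EBPα, 50 H3K4me1 and 1 H3K27me3 members, 6 Hoxa9 and 12 C/EBPα members touching H3K4me1, 4 stretches, 3 Hoxa9 and 27 H3K4me1 summits in the far interval, and a largest stretch of 30.1 kb. Both settings remove peaks by construction. They were applied to both lists of an overlap. Their overlap counts therefore leave out factor peaks that touched only H3K4me1 regions or C/EBPα peaks removed by the same setting. Sharing of 50% of the shorter peak, and a summit inside the region, each gave 5 Hoxa9 members in H3K4me1 in place of 10. Narrowing the far interval by 50 kb on either side left 3 Hoxa9 and 4 C/EBPα summits and 40.2 kb of H3K4me1, and removed its strongest Hoxa9 site. Widening it by as much gave 6, 11 and 65.6 kb. Moving the Myc start 5 kb downstream gave 3 H3K4me1 regions within 25 kb in place of 1. With gaps of at most 5 kb the largest stretch covered 25.3 kb in place of 46.9 kb. A false discovery rate of 5% or less removed no peak in any list, so that setting says nothing of stability. The alternatives for short gaps in H3K4me1 were chosen after seeing the data. No paired analysis was possible because each group has 1 library.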

Other observations

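The megabases on either side of the window differed from each other. The 1 Mb before it held 0 Hoxa9 peaks, 1 C/EBPα peak, 1 H3K4me1 region and 0 H3K27me3 regions. The 1 Mb after it held 11 Hoxa9 peaks, 28 C/EBPα peaks, 91 H3K4me1 regions covering 146 kb, and 27 H3K27me3 regions covering 35.1 kb, with highest fold enrichments of 38.33, 49.38, 12.36 and 20.99. A site 7.31 kb past the border had a Hoxa9 peak (chr15:63707309-63708225) with a fold enrichment of 6.94. It overlapped a C/EBPα peak (chr15:63707446-63708300) with 17.51. Both lay inside an H3K4me1 region (chr15:63706999-63708557) with 5.36. The first H3K27me3 region past the border lay 18.8 kb away, with a fold enrichment of 4.74.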
